A study of Danio rerio with 15 samples.

Results

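The DNA damage response and repair genes described here are 34 genes taken by name, and 31 of them had a row of that name among the 23009 genes of the deposited tables. The other 3, fanca, xrcc2 and claspn, had no row of that name. All 31 measured genes reached the level needed for testing, so none was lost to the filter. The rule uses gene names only, and no measured value.

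Pooled heads of zebrafish embryos (Danio rerio) were taken 2 days after fertilization, 20 embryos to a pool, and their RNA was sequenced from 5 pools in each of 3 groups. All embryos came from natural matings of wild-type adults and were kept at 28 °C. The first group was injected with a guide RNA against ncapg2 together with Cas9, the nuclease that the guide RNA directs to its target (guide plus Cas9). The second group received the guide RNA alone (guide). Titles and treatment labels number this guide RNA differently, and it is taken here as 1 guide RNA. The third received phenol red, a tracer dye used in injection mixes. No group that received Cas9 without the guide RNA, or Cas9 with a guide RNA to another gene, was analysed here, so cutting of DNA as such and loss of ncapg2 cannot be told apart. Injected embryos are not a stable mutant line, and each pool can hold edited and unedited cells. The study set out to see what loss of NCAPG2, a subunit of the condensin II complex that compacts chromosomes for cell division, does to the transcriptome of the developing head. The labels call the 5 pools of a group biological replicates.

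Cells answer a broken or stalled DNA molecule with the kinases ATM and ATR, which signal through CHEK2 and CHEK1 and through mediator proteins that gather at the lesion. Breaks in both strands are rejoined directly by end joining, or are trimmed back by the MRN complex and nucleases, coated with RPA and copied from the sister chromatid by homologous recombination. The Fanconi anaemia proteins deal with crosslinked strands. Much of this network is run by modification of existing proteins, and many of its genes are transcribed most in dividing cells, which are plentiful in the embryonic brain and eye. The gene roles below are those known from human and other vertebrate cells.

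The values are normalized counts, that is reads of a gene divided by a size factor of the library. Between 34.97 and 49.3 M (M, mega) reads were recovered per library. The range was 41.58 to 48.51 M with guide plus Cas9, 39.79 to 49.3 M with guide and 34.97 to 46.46 M with phenol red. The part of this depth in the comparisons with phenol red was not tested. Markers of head and brain, lens and retina were present in every library, and none of these marker genes was at 0 in all libraries of a group. The summed level of markers of yolk, liver and posterior trunk ranged from 603 to 34822 in guide plus Cas9 libraries, from 4269 to 34757 in guide libraries and from 2197 to 46883 in phenol red libraries. The libraries are called S1 to S15 after their column headings, and library values run from S11 to S15 for guide plus Cas9, from S6 to S10 for guide and from S1 to S5 for phenol red. In bulk tissue, fewer cells of a type and less RNA per cell cannot be told apart.

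The targeted gene, ncapg2 (ENSDARG00000060023), had 423, 407, 373, 505 and 432 normalized counts in guide plus Cas9 heads. It had 988, 979, 901, 809 and 885 in guide heads and 834, 868, 945, 754 and 879.7 in phenol red heads. Every guide plus Cas9 library was below every library of the other groups. The level with Cas9 was 46.9% of that with the guide alone (log2 fold change −1.09, SE 0.0847, limma adjusted p = 0.000318) and 50.0% of that with phenol red (−1.001, SE 0.0861, adjusted p = 0.000868). Two-sided exact permutation tests of the mean log2 values gave p = 0.00794 for each, the smallest that 252 regroupings allow. The guide and phenol red groups did not separate at ncapg2 (exact permutation p = 0.246).

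None of the 31 damage response and repair genes was called in any comparison at a limma adjusted p under 0.05. The background was as low: 0.00463% of the 21590 genes tested were called between guide plus Cas9 and guide, 0.00463% of 21580 between guide plus Cas9 and phenol red, and 0.0% of 21601 between guide and phenol red. Without adjustment, 0 of the 31 members had p under 0.05 between guide plus Cas9 and guide, where 0.917% of all genes did. Between guide plus Cas9 and phenol red 2 did (topbp1 and exo1, background 2.29%), and between guide and phenol red 1 did (topbp1, background 1.04%). The smallest limma adjusted p of a member was 0.99997 between guide plus Cas9 and guide, 0.99994 between guide plus Cas9 and phenol red and 0.99998 between guide and phenol red. DESeq2 and edgeR on the recovered reads also called 0 members in each comparison. The exact permutation p-values given below for single genes are two-sided over 252 regroupings and are not adjusted for the choice of the genes. In no comparison and for no member did all libraries of one group lie above all of the other (background 0.232% between guide plus Cas9 and guide, 0.426% between guide plus Cas9 and phenol red and 0.204% between guide and phenol red).

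The 95% intervals give, for each gene taken alone, a range for the change in the mean of the pools. They are not adjusted for the number of genes and do not bound the change in edited cells. For all 31 members and in all 3 comparisons, the 95% interval of the fold change lay within 1.5-fold in either direction. Over all genes this held for 85.6%, 84.9% and 84.6% of those tested, which include genes with fewer counts than any member. In each comparison the widest intervals belonged to rad54l and rad51c.

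**Figure D1:**
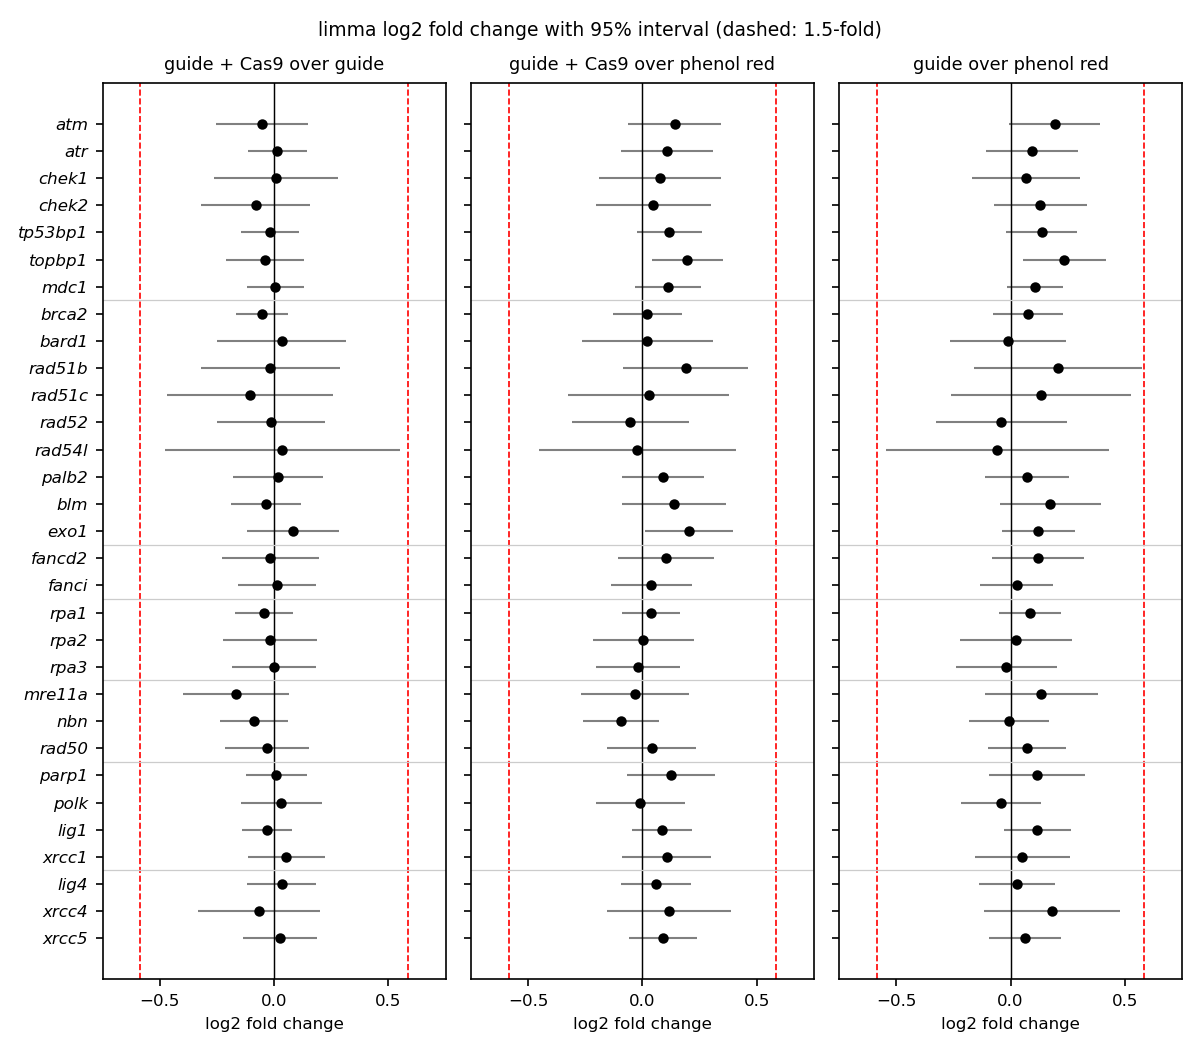
Log2 fold change of each of the 31 members (points) with its 95% interval (lines) from limma, one panel per comparison; n = 5 libraries per group, the dashed lines mark a 1.5-fold change, and thin lines separate pathway groups. Every interval lies between the dashed lines, and in the 2 comparisons with phenol red 25 of 31 points are above 0.

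The direction differed between the comparisons. Where 3 values follow each other from here on, they are for guide plus Cas9 against guide, for guide plus Cas9 against phenol red and for guide against phenol red. Guide plus Cas9 against guide gave 13 of 31 positive log2 fold changes, with a median of −0.02, where 50.9% of all genes were positive. Against phenol red, 25 of 31 members were positive for guide plus Cas9 (median 0.08, with 52.2% of all genes positive and a median of 0.00 over all genes). For guide against phenol red, 25 of 31 were again positive (median 0.08, with 54.7% of all genes positive and a median of 0.01 over all genes). The last 2 comparisons share the phenol red libraries, so their similar values are not separate observations. These medians amount to differences of a few percent in level, and no single member passed the test.

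The markers of cycling cells are given beside them. Of 17 measured markers (such as the replicative helicase subunits mcm3, mcm5 and mcm7), 9 were positive for guide plus Cas9 against guide, 16 for guide plus Cas9 against phenol red and 15 for guide against phenol red, with medians of 0.02, 0.11 and 0.08 and none called. Their summed level was 75086 to 81911 in guide plus Cas9 libraries and 75781 to 79930 in guide libraries, against 64285 to 76812 in phenol red libraries. The phenol red library S1 stood lowest, with a cycling score of −0.24. A score here is the mean over a list of the log2 difference from each gene's mean over 15 libraries. The damage response and repair score was 0.0169 ± 0.0757 with guide plus Cas9, 0.0334 ± 0.083 with guide and −0.0503 ± 0.0578 with phenol red (SD, n = 5 each). The cycling score was 0.0471 ± 0.0461 with guide plus Cas9, 0.0269 ± 0.0294 with guide and −0.0739 ± 0.104 with phenol red. The part of the cycling markers in the members' values was not tested.

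**Figure D2:**
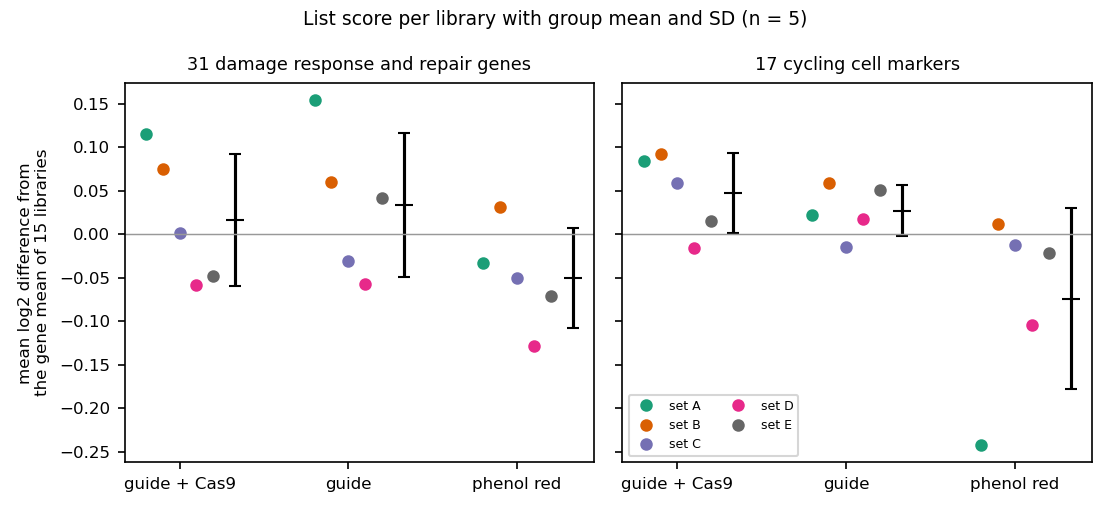
Score of the 31 damage response and repair genes (left) and of 17 cycling cell markers (right) in each library, as the mean log2 difference from the gene means over 15 libraries, with group mean and SD (n = 5); colours mark the library sets A to E. Groups overlap in both panels, and the phenol red library of set A (S1) is lowest in the cycling score at −0.24.

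Among the checkpoint kinases and their mediators, all 7 measured genes had positive values against phenol red in both comparisons, with a median log2 fold change of 0.11 for guide plus Cas9 and 0.13 for guide. Between guide plus Cas9 and guide the median was −0.02, with 3 of 7 positive. topbp1 (ENSDARG00000059322), whose product activates ATR at stalled forks, had 719.8, 731, 756, 686 and 638 normalized counts in guide plus Cas9 heads and 843, 704, 758, 699 and 634 in guide heads. In phenol red heads it had 549, 606, 636, 684 and 608. The guide plus Cas9 and guide libraries were mostly above the phenol red ones, but the phenol red library S4 lay within both of their ranges and S3 just within the range of the guide group. The log2 fold change against phenol red was 0.20 ± 0.07 (SE) for guide plus Cas9 (exact permutation p = 0.0159) and 0.24 ± 0.08 for guide (exact permutation p = 0.0238). Between guide plus Cas9 and guide it was −0.04 ± 0.08.

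tp53bp1 (ENSDARG00000079000), a break-binding mediator that favours end joining, had 4977, 4538, 5121, 4987 and 4775 normalized counts with guide plus Cas9, 4855, 4791, 5437, 5079 and 4571 with guide and 4389, 4125, 4758, 4999.6 and 4244 with phenol red. The phenol red libraries S3 and S4 lay within the range of the other groups and the remaining 3 below it. The log2 fold change against phenol red was 0.12 ± 0.07 for guide plus Cas9 (exact permutation p = 0.0952) and 0.14 ± 0.07 for guide (exact permutation p = 0.0794). mdc1, which binds the phosphorylated histone at a break, averaged 1643 ± 126 with guide plus Cas9, 1634 ± 42.7 with guide and 1519 ± 92 with phenol red (SD, n = 5 each). Its log2 fold change against phenol red was 0.11 ± 0.07 for guide plus Cas9 (exact permutation p = 0.127) and 0.11 ± 0.06 for guide (exact permutation p = 0.0397).

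atm (ENSDARG00000002385), the kinase activated at breaks, had 892, 855, 763, 695 and 689.7 normalized counts with guide plus Cas9, 918, 858, 772, 789 and 699.7 with guide and 629, 841, 667, 702 and 692 with phenol red. The 3 ranges overlapped, and the single lowest library was the phenol red library S1. For guide against phenol red its log2 fold change was 0.19 ± 0.09 (exact permutation p = 0.0873). atr, the kinase recruited to RPA-coated strands, averaged 592 ± 32.2 with guide plus Cas9, 586 ± 28.1 with guide and 552 ± 73.8 with phenol red. Its widest spread came from the phenol red library S1, at 434 against 545 to 626 in the other 4.

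chek1 (ENSDARG00000104765), the kinase that carries the ATR signal, had 415, 365, 291, 302 and 273 normalized counts with guide plus Cas9, 384, 352, 280.2, 289 and 323 with guide and 353, 346, 288, 269 and 295 with phenol red. S11, S6 and S1, which form a library set described below, were the highest of their groups. chek2, the kinase that carries the ATM signal, averaged 225 ± 35.4 with guide plus Cas9, 236 ± 19.5 with guide and 216 ± 21.9 with phenol red, and its log2 fold change between guide plus Cas9 and guide was −0.08 ± 0.11.

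**Figure D3:**
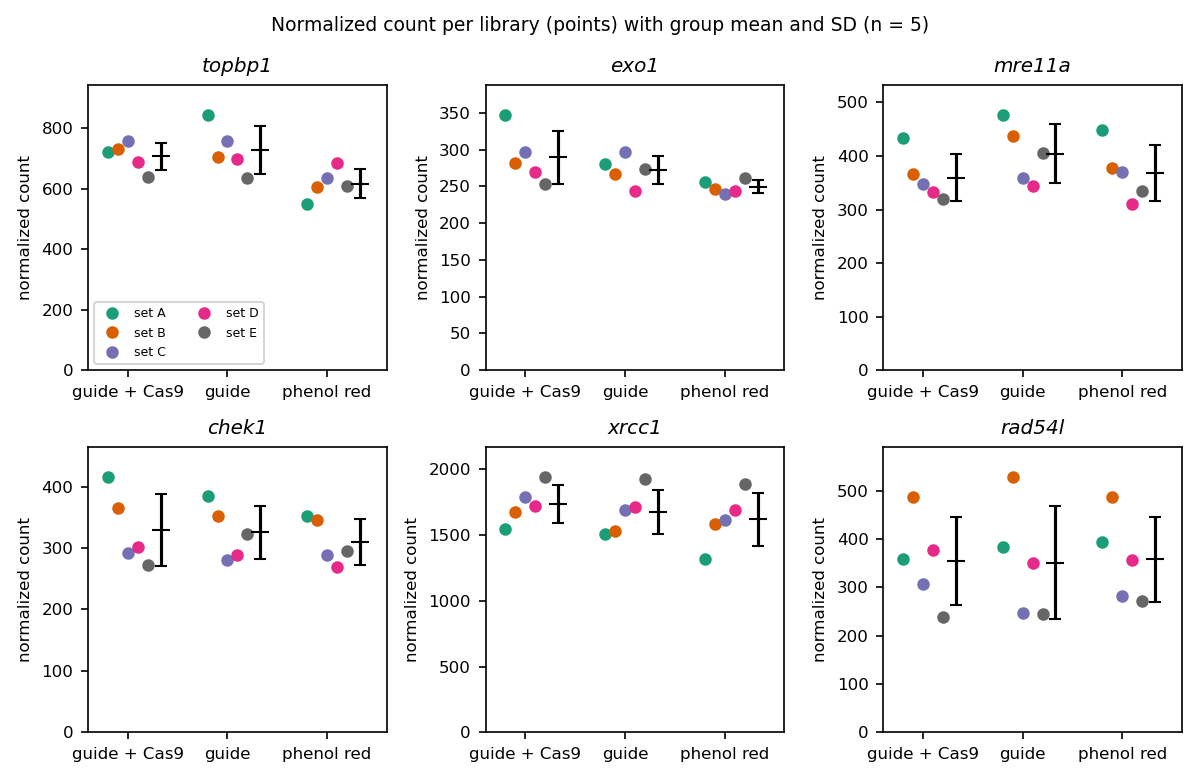
Normalized counts of 6 members in each library, with group mean and SD (n = 5); colours mark the library sets A to E and every axis starts at 0. The phenol red libraries of topbp1 lie at 549 to 684, and for rad54l the set B library is highest and the set E library lowest in each group.

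For homologous recombination, 9 genes were measured, with median log2 fold changes of −0.01 for guide plus Cas9 against guide, 0.03 for guide plus Cas9 against phenol red and 0.08 for guide against phenol red. exo1 (ENSDARG00000056832), a nuclease that trims broken ends, had 347, 282, 297, 269 and 253 normalized counts with guide plus Cas9 and 280.2, 266, 297, 244 and 274 with guide. With phenol red it had 255, 247, 240.2, 244 and 262. The guide plus Cas9 values overlapped the phenol red values at S15 only, and S11 was the highest of all 15. Its log2 fold change was 0.21 ± 0.09 for guide plus Cas9 against phenol red (exact permutation p = 0.0238) and 0.14 without S11. Against guide it was 0.08 ± 0.09, the highest of the members, 0.02 without S11, 0.05 without S9 and 0.13 without S15.

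brca2, a mediator of homologous recombination, averaged 1033 ± 43.9 with guide plus Cas9, 1071 ± 43.6 with guide and 1019.8 ± 97.2 with phenol red (SD, n = 5 each). Its partner palb2 averaged 398 ± 41.5 with guide plus Cas9, 394 ± 40.3 with guide and 373 ± 27.5 with phenol red. bard1, the partner of BRCA1, averaged 112 ± 17.5 with guide plus Cas9, 109 ± 12.4 with guide and 110.0 ± 12.3 with phenol red. None of these 3 had an unadjusted limma p under 0.05 in any comparison.

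The related genes rad51b and rad51c act together in homologous recombination. rad51b averaged 118 ± 5.46 with guide plus Cas9, 121 ± 25.1 with guide and 104 ± 17.8 with phenol red, and rad51c averaged 102 ± 17.2 with guide plus Cas9, 111 ± 25.8 with guide and 101 ± 23.3 with phenol red. For rad51b the log2 fold change was 0.19 ± 0.13 for guide plus Cas9 against phenol red and 0.21 ± 0.17 for guide against phenol red. rad52, a strand-annealing protein, had −0.05 ± 0.12 and −0.04 ± 0.13 in those comparisons. The helicase gene blm had 0.14 ± 0.10 and 0.17 ± 0.10, with its lowest library again S1 (392 against 494 to 572 in the other phenol red libraries). A gene named XRCC2 in capitals, not counted among the 31, lay at 13.8 to 27.7 in all libraries.

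rad54l (ENSDARG00000018623), a motor protein that moves along DNA during recombination, had 358, 486, 307, 378 and 239.5 normalized counts with guide plus Cas9. It had 384, 527, 246, 351 and 244 with guide and 393, 487, 281, 357 and 272 with phenol red. The means were 354 ± 91.3 with guide plus Cas9, 351 ± 117 with guide and 358 ± 88.2 with phenol red (SD, n = 5 each), and the spread within each group was far larger than the differences between the group means. Its fold change for guide against phenol red was −0.06 ± 0.22 on the log2 scale and turned positive without S2, S8 or S10.

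In the Fanconi anaemia group, 2 genes were measured, the partners fancd2 and fanci that are ubiquitinated together at a crosslink. fancd2 (ENSDARG00000053574) had 1231, 955, 973, 889.5 and 1097 normalized counts with guide plus Cas9, 1142, 965, 1085, 875 and 1127 with guide and 962, 978, 998, 795 and 1044 with phenol red. The groups overlapped, and S14, S9 and S4 were the lowest of their groups. The log2 fold change was 0.10 ± 0.10 for guide plus Cas9 against phenol red and 0.12 ± 0.09 for guide against phenol red. fanci had 0.04 ± 0.08 and 0.03 ± 0.07.

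RPA, the complex that coats single strands, has 3 subunits among the members. Their median log2 fold changes were −0.02, 0.00 and 0.02 in the 3 comparisons in the order used above. rpa2 (ENSDARG00000037188) had 1308, 1418, 1229, 1081 and 1256 normalized counts with guide plus Cas9, 1465, 1336, 1134, 1079 and 1373 with guide and 1374, 1495, 1108, 1042 and 1284 with phenol red, which overlapped almost wholly. rpa1 averaged 3873 ± 199 with guide plus Cas9, 4000.1 ± 258 with guide and 3773 ± 182 with phenol red, and rpa3 462 ± 26.5 with guide plus Cas9, 464 ± 56.8 with guide and 469 ± 54.3 with phenol red.

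Between guide plus Cas9 and guide, RPA had negative values for 3 of 3 genes, but its median was only −0.02 and rpa3 had −0.0007 ± 0.0853 (SE). The MRN complex, which holds and trims broken ends, also had negative values for 3 of 3 genes there (median −0.09). mre11a (ENSDARG00000105014), its nuclease, had 433, 366, 347, 332 and 321 normalized counts with guide plus Cas9 and 476, 437, 359, 345 and 405 with guide. With phenol red it had 448, 378, 369.6, 311 and 335. The groups overlapped broadly. The log2 fold change of −0.17 ± 0.11 between guide plus Cas9 and guide was the lowest of the 31 members (exact permutation p = 0.182), and it was −0.10 without S6 and −0.24 without S11. Against phenol red it was −0.03 ± 0.11.

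nbn (ENSDARG00000040303), the subunit that recruits ATM, had 678, 658, 625, 621 and 573 normalized counts with guide plus Cas9, 741, 693, 604, 648 and 669 with guide and 749, 731, 639, 663 and 593 with phenol red. The ranges of the groups overlapped. The log2 fold change was −0.09 ± 0.07 against guide and −0.09 ± 0.08 against phenol red, the lowest value of the members there. Against guide it was −0.05 without S6 or without S15, and against phenol red −0.06 without S1 or without S15. rad50, the clamp of the complex, had −0.03 ± 0.08 and 0.04 ± 0.09.

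Of the base repair and translesion genes, 4 were measured, with medians of 0.02, 0.10 and 0.08 in the 3 comparisons. xrcc1 (ENSDARG00000009494), the scaffold of single-strand break repair, had 1548, 1676, 1790.2, 1717 and 1936 normalized counts with guide plus Cas9, 1509, 1531, 1685, 1709 and 1925 with guide and 1317, 1579, 1614, 1692 and 1883 with phenol red. The ranges overlapped, and S15, S10 and S5 were the highest of their groups. parp1, the sensor of strand breaks, averaged 4438 ± 207 with guide plus Cas9, 4415 ± 343 with guide and 4094 ± 530.3 with phenol red. lig1, the replicative ligase, averaged 2601 ± 65.6 with guide plus Cas9, 2659 ± 146 with guide and 2453 ± 181 with phenol red. polk, a translesion polymerase, averaged 321 ± 31.6 with guide plus Cas9, 313 ± 19.8 with guide and 323 ± 27.1 with phenol red.

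Of the end joining genes, the 3 measured had medians of 0.02, 0.09 and 0.06. xrcc4 (ENSDARG00000010732), the partner of ligase 4, had 225, 198, 197, 161 and 191 normalized counts with guide plus Cas9, 262, 205, 177, 176 and 204 with guide and 204, 197, 174, 136 and 190.2 with phenol red. The log2 fold change was −0.07 ± 0.12 between guide plus Cas9 and guide, 0.12 ± 0.13 between guide plus Cas9 and phenol red and 0.18 ± 0.14 between guide and phenol red. lig4, the ligase of this pathway, averaged 388 ± 18.1 with guide plus Cas9, 379 ± 29.7 with guide and 372 ± 25.8 with phenol red, and xrcc5, the large subunit of the end-binding Ku complex, 1017 ± 77.6 with guide plus Cas9, 1001 ± 91.7 with guide and 955 ± 61.9 with phenol red. Values of all 3 overlapped between the groups.

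**Figure D4:**
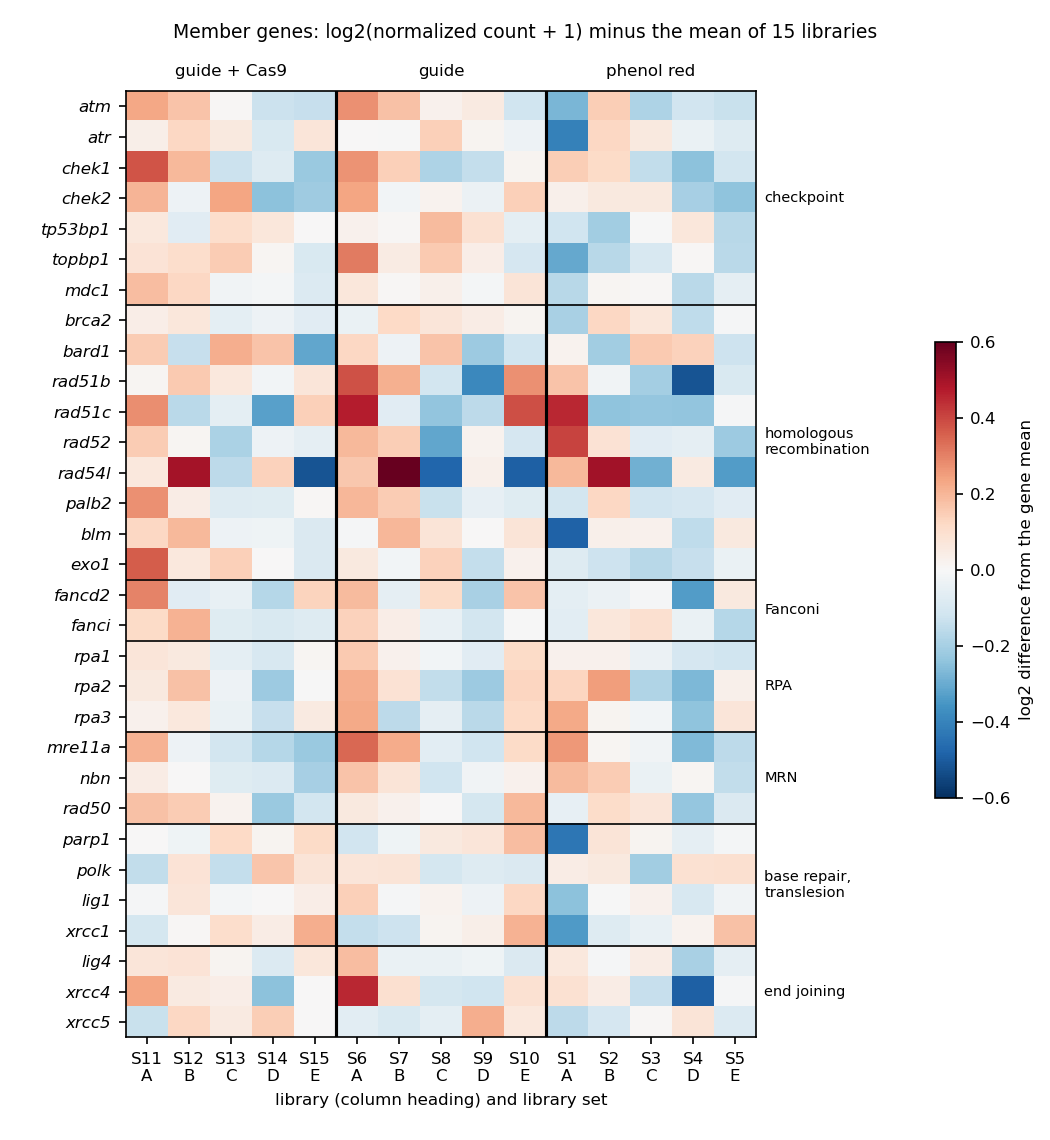
Log2(normalized count + 1) of the 31 members in 15 libraries as the difference from each gene's mean (colour scale from −0.6 to 0.6), grouped by pathway, with guide plus Cas9, guide and phenol red from left to right and the library set under each library. The row of rad54l repeats the same pattern of high and low libraries in each group.

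The libraries were sorted into sets that cut across the groups, and 27 of the 31 members varied more by set than by treatment, where 93.8% of all genes did. The sets were found from 21735 genes outside the members and the further repair lists. Each set takes 1 library from every group, and of 14400 ways to form 5 sets the one with the highest summed correlation of deviations from group means was used (7.77, against 6.40 for the next). They are A (S1, S6, S11), B (S2, S7, S12), C (S3, S8, S13), D (S4, S9, S14) and E (S5, S10, S15). Such a search always returns 5 sets. Correlations ran from 0.127 to 0.782 within sets, and from −0.538 to 0.361 between libraries of different sets and groups. Some libraries of a set were therefore less alike than some libraries of different sets. Found without use of the column order, the sets follow the order of the headings within each group. The sources used here do not tie that order to the replicate numbers in the sample titles, and what the libraries of a set share was not tested. Over the members, the set accounted for a median of 58.2% of the sum of squares and the group for 12.4%, against 58.4% and 6.85% over 21902 genes tested. Sets hold 28.6% and groups 14.3% of the degrees of freedom. For 22 of the 31 members the set share was over 50%, where 62.5% of all genes were. The shares over all genes come mostly from the genes that chose the sets, which can raise them. The members had no part in that choice.

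rad54l was the extreme, with 95.1% of its sum of squares between sets and 0.436% between groups. Set B averaged 500.0 normalized counts and set E 252, a 1.99-fold range, and B was highest and E lowest in 3 of 3 groups. rpa2 followed at 87.9% (set B over set D, 1.33-fold), then chek1 at 85.7% (A over C, 1.34-fold), rad51c at 85.7% (A over D, 1.57-fold) and xrcc1 at 82.8% (E over A, 1.31-fold). xrcc4 had 74.7% (A over D, 1.46-fold), mre11a 74.9% (A over D, 1.37-fold) and fancd2 73.1% (A over D, 1.30-fold). xrcc1 stood against most of the others, with set A lowest in 3 of 3 groups. Set A was the highest set for 14 of 31 members and set D the lowest for 14. Over all genes set A was the highest in 31.1% and set D the lowest in 19.4%. Set A was also the lowest set for 6 members, and for 32.95% of all genes.

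At the other end, topbp1 had 17.6% between sets and 46.8% between groups. exo1 had 27.5% and 38.4%, mdc1 17.3% and 32.0%, and lig1 15.2% and 32.2%. tp53bp1 had 53.3% between sets and 33.8% between groups.

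**Figure D5:**
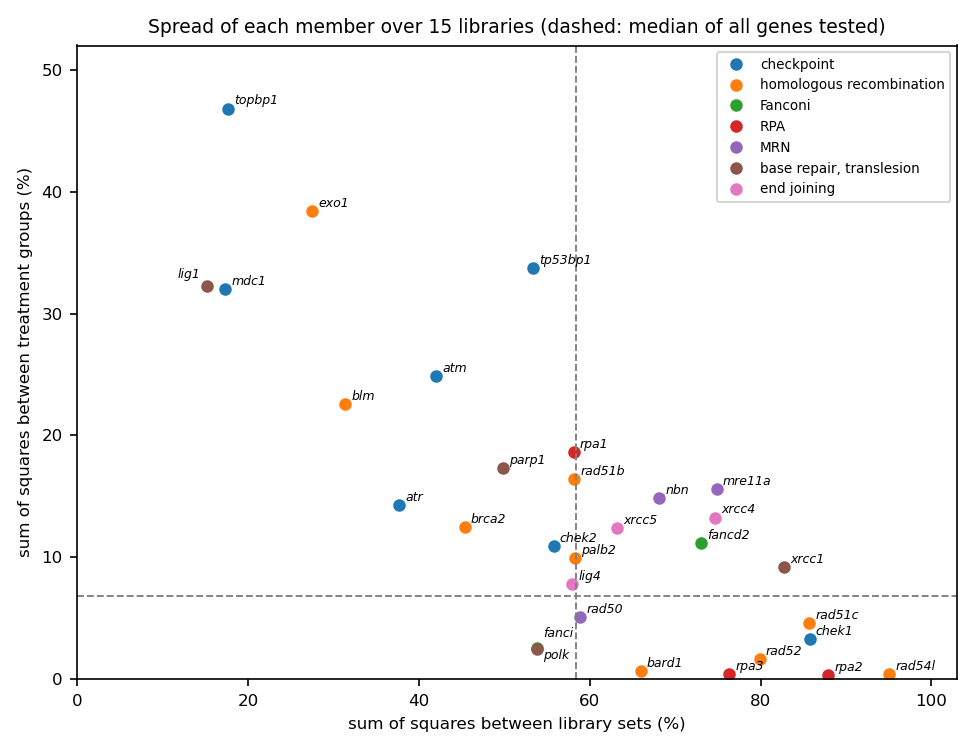
Share of each member's sum of squares over 15 libraries that lies between library sets (horizontal axis, percent) and between treatment groups (vertical axis, percent), coloured by pathway; dashed lines mark the medians of all genes tested, 58.4% and 6.85%. topbp1 is highest on the group axis at 46.8% and rad54l farthest on the set axis at 95.1%.

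Adding the library set to the limma model as a block narrowed the standard errors, and still called 0 members in each comparison. The sets were chosen from the values of these libraries, so p-values with the block can be too small. The background was 0.0139% for guide plus Cas9 against guide, 0.00927% for guide plus Cas9 against phenol red and 0.0185% for guide against phenol red, and the smallest adjusted p of a member was 0.985, 0.495 and 0.403 in these comparisons. Without adjustment, 1 member had p under 0.05 between guide plus Cas9 and guide (mre11a, lower; background 4.55%). It was lower in guide plus Cas9 than in guide in all 5 sets. Between guide plus Cas9 and phenol red 3 members did, all higher (topbp1, exo1 and tp53bp1; background 9.12%). Between guide and phenol red 11 of 31 did, all higher, against a background of 7.71%. These were tp53bp1, topbp1, atm, blm, fancd2, mdc1, parp1, xrcc4, lig1, rad51b and mre11a. Without set A, with 4 libraries a group, the block gave 1 member between guide plus Cas9 and guide (mre11a; background 3.11%), 2 between guide plus Cas9 and phenol red (rad51b and topbp1; background 5.95%) and 2 between guide and phenol red (tp53bp1 and topbp1; background 5.21%). The count for guide against phenol red was thus 11 with set A and 2 without it, with fewer libraries and a lower background. Without set A, 25 of 31 members were still positive in that comparison (median 0.06), as were 11503 of 21601 genes. Set A holds S1, the phenol red library lowest in cycling markers. In the damage response and repair score S1 was not the lowest, at −0.0333 in a phenol red range of −0.128 to 0.031. The part of S1 in these counts was not tested.

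Counted set by set, topbp1 was higher than in phenol red in 5 of 5 sets for guide plus Cas9 and in 5 of 5 for guide. Of the 31 members, 4 were higher in all 5 sets for guide plus Cas9 against phenol red (topbp1, xrcc1, xrcc4 and xrcc5; 4.19% of all genes) and 1 was lower (nbn; 3.75%). For guide against phenol red 6 were higher (topbp1, tp53bp1, atm, blm, rad51b and xrcc4; 4.38%) and 0 lower (3.08%). Between guide plus Cas9 and guide, xrcc1 was higher in all 5 (3.14% of all genes), and atm and mre11a were lower in all 5 (3.25%).

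The rest of the damage response was read from 9 further lists of 153 symbols, 136 of them tested. None was called in any comparison (every limma adjusted p was 0.99994 or above in the comparison of guide plus Cas9 with phenol red, and higher in the other 2). Without adjustment 2 had p under 0.05 between guide plus Cas9 and guide (0.917% of all genes), 6 between guide plus Cas9 and phenol red (2.29%) and 2 between guide and phenol red (1.04%). Positive values numbered 69, 82 and 86 of 136, with medians of 0.00, 0.02 and 0.02, where 50.9%, 52.2% and 54.7% of all genes were positive.

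Of these genes, cdkn1a, which halts the cell cycle, and mdm2, a ubiquitin ligase gene, were among those with p under 0.05 between guide plus Cas9 and phenol red, and mdm2 also between guide plus Cas9 and guide. Their library values were taken up after these results were seen. Both come from the further list of p53 targets, of which 25 were tested and none was called. Most of that list did not follow them. Of the 25, 9 were positive for guide plus Cas9 against guide, 12 for guide plus Cas9 against phenol red and 15 for guide against phenol red. The list medians were −0.01, −0.01 and 0.01. mdm2 (ENSDARG00000033443) had 1321, 1407, 1251, 1265 and 1193 with guide plus Cas9, 1240.4, 1127, 1090.4, 1160.2 and 1190.3 with guide and 1188, 1138, 1164, 1186 and 1077 with phenol red. Every guide plus Cas9 library was above every phenol red library, which held for 0.218% of all genes, while the guide library S6 lay within the guide plus Cas9 range. The log2 fold changes were 0.15 ± 0.06 against guide (exact permutation p = 0.0159) and 0.16 ± 0.06 against phenol red (exact permutation p = 0.00794). cdkn1a (ENSDARG00000076554) had 251, 221, 194, 167 and 255 with guide plus Cas9, 219.5, 179, 155, 151 and 214 with guide and 188, 168, 162, 129.5 and 165 with phenol red. The groups overlapped. The log2 fold change was 0.24 ± 0.14 against guide (exact permutation p = 0.1825) and 0.41 ± 0.13 against phenol red (exact permutation p = 0.0238). Both genes were higher with guide plus Cas9 in 5 of 5 sets in both comparisons. Without set A their log2 fold changes against phenol red were 0.16 (mdm2) and 0.41 (cdkn1a). Between guide and phenol red the log2 fold changes were 0.01 ± 0.06 for mdm2 and 0.17 ± 0.13 for cdkn1a. With the library-set block the unadjusted limma p was 0.0123 (mdm2) and 0.00549 (cdkn1a) against guide. Against phenol red it was 0.00748 (mdm2) and 0.000231 (cdkn1a). Of all genes, 4.55% and 9.12% had such a p under 0.05 in these comparisons. The adjusted p with the block was 0.985 (mdm2) and 0.983 (cdkn1a) against guide, and 0.495 for each against phenol red.

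Among the further genes, msh6, a mismatch-binding protein, had 0.22 ± 0.09 for guide plus Cas9 against phenol red (exact permutation p = 0.0476) and 0.24 ± 0.10 for guide against phenol red (exact permutation p = 0.0556). tonsl, which protects newly copied DNA at forks, had 0.22 ± 0.11 and 0.23 ± 0.11 in the same comparisons, and its partner mms22l had 0.18 ± 0.08 for guide plus Cas9 against phenol red (exact permutation p = 0.0397). poli, a translesion polymerase, had −0.18 ± 0.08 there (exact permutation p = 0.0317), and fas, a death receptor, had −0.34 ± 0.16 for guide plus Cas9 against guide (exact permutation p = 0.0238). By pathway, nucleotide excision repair had 18 of 22 positive for guide plus Cas9 against guide, 13 of 22 for guide plus Cas9 against phenol red and 9 of 22 for guide against phenol red (medians 0.04, 0.02 and −0.02). The further end joining genes had 2, 3 and 7 of 8 positive (medians −0.08, −0.06 and 0.02). The further Fanconi anaemia genes had 4, 10 and 11 of 14 positive (medians −0.02, 0.07 and 0.07). Further homologous recombination genes had 11, 12 and 14 of 21 positive, and base excision repair 11, 11 and 8 of 17. Translesion synthesis had 4, 5 and 6 of 9, mismatch repair 2, 5 and 6 of 7, and further checkpoint genes 11, 12 and 12 of 17. Over all genes 50.9%, 52.2% and 54.7% were positive. In nucleotide excision repair 0 genes had an unadjusted limma p under 0.05 in any comparison.

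In the authors' deposited table, 0 of the 31 members were called in each comparison, with median log2 fold changes of −0.02, 0.08 and 0.08. Of all 23009 genes, 1, 2 and 0 were called there, so few calls were made among any genes. The share of all genes with unadjusted p under 0.05 was not computed for that table, so the counts below have no background. In the authors' deposited table, unadjusted p was under 0.05 for 0 members between guide plus Cas9 and guide, for 2 between guide plus Cas9 and phenol red (exo1 and topbp1) and for 3 between guide and phenol red (lig1, topbp1 and tp53bp1).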

How the data were processed

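RNA was measured in 15 libraries, 5 in each of 3 groups, from stranded poly(A) libraries read as 50 bp single ends, per the labels' protocols. Per the submitters' processing notes, the tools were bcl2fastq, cutadapt, Trim Galore, STAR, HTSeq and DESeq2; their order, versions and settings, the genome build and the annotation were not stated in the sources used here. The authors deposited 3 tables of 10 libraries each with a normalized signal per gene, a read count divided by a size factor of the library, and every value was a whole multiple of its library's smallest step (100% within 0.001 of a read), which gave recovered reads. The authors also deposited log2 fold changes, test statistics (unit score) and p-values per gene. No column belonged to no sample, and columns carry no replicate number, so libraries were placed in groups by the tables that hold them.

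The tests used limma 3.58.1 in R 4.3.3 (trend, robust) on log2(value + 1), for genes with 10 or more in at least 5 libraries of a comparison, with Benjamini-Hochberg adjustment over all genes tested and a threshold of 0.05. Fold changes on this scale understate those of low genes. edgeR 4.0.16 (quasi-likelihood) and DESeq2 1.42.0 ran on the recovered reads. The steps were tested on simulated data. There limma called 10%, 14% and 8% of genes changed 1.25-fold in the 3 comparisons, in the order used above. Of genes changed 1.5-fold it called 72%, 74% and 74%. In each comparison 50 genes were changed at each of 1.25-, 1.5-, 2- and 4-fold, all with a mean of 50 or more. Calls of unchanged genes numbered 9, 9 and 4. The simulated libraries held no library sets. So many changed genes at once make the adjusted threshold easier to pass than in the measured data. These shares can therefore overstate what would be called for a single member. A count of 0 members called therefore does not show that small changes are absent. The members, lists and tests were chosen with earlier results of these data known. For each comparison the text names the 3 members with the smallest p, those with the highest and lowest fold change, and in each pathway the member that varied most by library set, and up to 2 genes of each further list. Promoter motifs, and levels compared per length, were planned and not run, since sequences and gene lengths were not used here; levels are therefore not compared between genes. Some genes and lists are not reported here. Genes that share reads with a near-identical copy are uncertain.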

Additional observations from a re-analysis of the deposited data

Results flagged for a closer look

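Of 96 groups of 5 libraries checked, 5 held a library far from the other 4 (the gap to its neighbour was over 0.71 of the group's range), and chance gives about 1 in 20. atr was highest in the guide library S8, at 635 normalized counts against 582 in the next. lig4 was highest in the guide library S6, at 432 against 372. rad51c was highest in the phenol red library S1, at 141 against 102. palb2 was highest in the phenol red library S2, at 422 against 369. polk was lowest in the phenol red library S3, at 275 against 329 in the next.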

How the results depend on the processing

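The number of members called was 0 in each comparison under all 23 alternatives, which covered TMM rescaling, DESeq2, edgeR, other filters (none, and 50), pseudocounts of 0.5, 5 and 10, all 3 groups in 1 fit, non-robust moderation, the library-set block, each library left out and, chosen after seeing the data, the removal of library set A with and without the block. The median log2 fold change of the members ran from −0.04 (without S9) to 0.02 (without S6) for guide plus Cas9 against guide and so had no fixed sign, from 0.03 (without S11) to 0.10 (without S14) for guide plus Cas9 against phenol red, and from 0.06 (without set A) to 0.11 (without S2) for guide against phenol red. For rad54l between guide and phenol red the sign turned, at 0.0616 without S2, 0.0538 without S8 and 0.0575 without S10, with a leave-one-out range of −0.22 to 0.06; the cause was not tested. ncapg2 between guide plus Cas9 and phenol red kept its log2 fold change (−1.01) with the block and without set A, where its adjusted p was 0.195 with 4 libraries a group. Apart from the medians of guide plus Cas9 against guide, the other recomputed values kept their direction and side of the threshold. No paired analysis was possible because the columns carry no replicate number by which to pair the libraries as labelled; the library-set block, which pairs libraries by sets found from the values, was run in its place. Every member had over 78 normalized counts in every library. The members with the fewest normalized counts, rad51c, bard1 and rad51b, averaged 105, 110 and 114 over the 15 libraries. These counts are not corrected for gene length and do not rank the genes by level. The part of read depth in their spread was not tested.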

Other observations

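The genes next to rad54l in the gene order of the RefSeq table (assembly GRCz12tu) were read after its pattern over the library sets was seen. The nearest measured neighbours, st3gal3a, kdm4aa and ptprfa on one side and uqcrh, dmbx1b and klhl41b on the other, had set ranges of 1.08-fold to 1.48-fold, against 1.99-fold for rad54l, and none had set B highest and set E lowest. Their shares of the sum of squares between sets ran from 38.8% (uqcrh) to 89.8% (ptprfa), against 95.1% for rad54l. A large set share was therefore not confined to rad54l.

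In the deposited annotation all 31 members have a human orthologue symbol, and 17 carry a human phenotype. Fanconi anaemia stands there for 5 members (brca2, rad51c, fancd2, fanci and palb2), Seckel syndrome or microcephaly for 2 (atr and xrcc4), and an immunodeficiency or breakage syndrome for 2 (nbn and rad50). The members whose phenotype text there names Seckel syndrome or microcephaly, atr and xrcc4, had log2 fold changes of 0.01 and −0.07 between guide plus Cas9 and guide. For nbn and rad50 the values were −0.09 and −0.03, and all of these intervals lay within 1.5-fold. This is a search by words, and it need not find every member tied to a small head.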
